A study of Mus musculus with 6 samples.

Results

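The genes of the interferon response and of antigen presentation were examined as 38 listed members: the MHC class I and class II genes with the peptide-loading machinery, the immunoproteasome, the interferon signalling factors, the cytoplasmic RNA sensors and a set of interferon-stimulated effectors. Members were found through the transcript accession of each array probe, and 36 of the 38 had a probe. No probe was matched to Mx1 or Mx2, so these antiviral genes have no value here. All 36 passed the filter on dim probes and were tested among 25005 genes and transcripts, and the probe used was well above background on all 6 arrays for each of the 36. The arrays measured quadriceps RNA from 6 male AR97Q mice at 9 weeks of age, 3 in an exercise group and 3 in a sedentary group. AR97Q mice model spinal and bulbar muscular atrophy (SBMA), are kept on a C57BL/6J background and carry a transgenic human androgen receptor with 97 CAG repeats. Both groups carry the transgene, so the comparison is between exercised and sedentary mutant mice and involves no wild-type animal. The exercise group ran in a forced wheel at 5 m/min for 60 min per day, 5 days per week, for 4 weeks from 5 weeks of age.

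Interferons are secreted proteins that signal through JAK kinases and STAT transcription factors to switch on a large set of antiviral genes, among them the MHC class I pathway. In that pathway the immunoproteasome cuts cytoplasmic proteins into peptides, the TAP transporter carries them into the endoplasmic reticulum, and class I molecules bound to beta-2 microglobulin (B2m) present them at the cell surface. Class II molecules present peptides taken up from outside and are made mainly by macrophages, dendritic cells and B cells. Healthy muscle fibres display little MHC class I, whereas interferon-stimulated genes and class I are known to be raised in inflamed muscle.

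Each value below is the log2 processed signal of a probe minus the 75th percentile of its array, so 0 stands for that percentile and a difference of 1 is a doubling. Before this step the percentile itself was lower in exercise (250.5 to 256.9) than in sedentary mice (310.3 to 383.6). The fibre markers Acta1, the actin of the sarcomere, and Ckm, muscle creatine kinase, were well above background on all 6 arrays, as the tissue label requires. All 7 fibre markers were higher in the exercise group (Des and Ttn did not keep this direction under every scaling) and 5 of them rose, led by Ckm (+1.50 ± 0.22, adjusted p = 0.0234 by limma), myoglobin Mb (+1.20) and Acta1 (+0.93). In whole muscle, fewer cells of a type and less RNA per cell cannot be told apart. All arrays lay on 1 slide. The exercise arrays shared a strip of it with sedentary mouse 1, and sedentary mice 2 and 3 lay in the other strip. Exercise mouse 3 gave the lowest value of all 6 arrays for 26 of the 36 members. Results that rest on it are therefore also given without it.

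Most members were lower in the exercise group, by small amounts. Of the 36, 33 lay below 0 and 3 above (Irf8, Psmb10 and Bst2), with a median difference of -0.17 on the log2 scale, while the median over everything tested was 0.03 and 47.1% lay below 0. Differences ran from -0.83 (Rsad2) to +0.38 (Irf8), and 34 of the 36 were within 0.5 of 0. With limma and Benjamini-Hochberg adjustment over all 25005, 3 members fell at an adjusted p under 0.05: Nlrc5, Ddx58 and Rsad2. They are 8.33% of the members, and 6.12% of everything tested fell. The only member that rose was Irf8, which is 2.78% of the members against 11.5% of everything tested. None of the 36 reached the study's further requirement of an absolute log2 fold change of 1. Leaving out any 1 array other than that of sedentary mouse 1 left 0 of these 4 calls, and leaving out sedentary mouse 1 left those of Ddx58 and Irf8. In the former fits at most 0.004% of everything tested was called in either direction. In the latter 8.24% of everything tested fell and 13.9% rose. With the strip as a block, 0 members passed, and 0.0120% of everything tested fell and 0% rose. At an unadjusted p under 0.05, 10 members were lower and 1 was higher, against 3851 lower and 5398 higher of all 25005. The 3 exercise arrays lay below the 3 sedentary arrays for 17 members (47.2%), a pattern found for 18.2% of everything tested. They lay above for 2 members (5.56%), Irf8 and Psmb10, against 25.0% of everything tested. Without exercise mouse 3, the members' median was -0.11, with 27 lower and 9 higher. Against sedentary mouse 1 alone, whose array shared the strip, the exercise mean was lower for 31 members and the median difference was -0.20. With no scaling between the arrays 32 members fell and none rose, and 45.1% of everything tested fell. The median over everything tested was then -0.45, and the members' median lay -0.19 from it, as in the scaled values. A factor per array cannot change this gap. Scaling on the spike-in probes moved all values in the same way, with 33 members lower past the test and none higher. There 46.6% of everything tested fell.

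**Figure D1:**
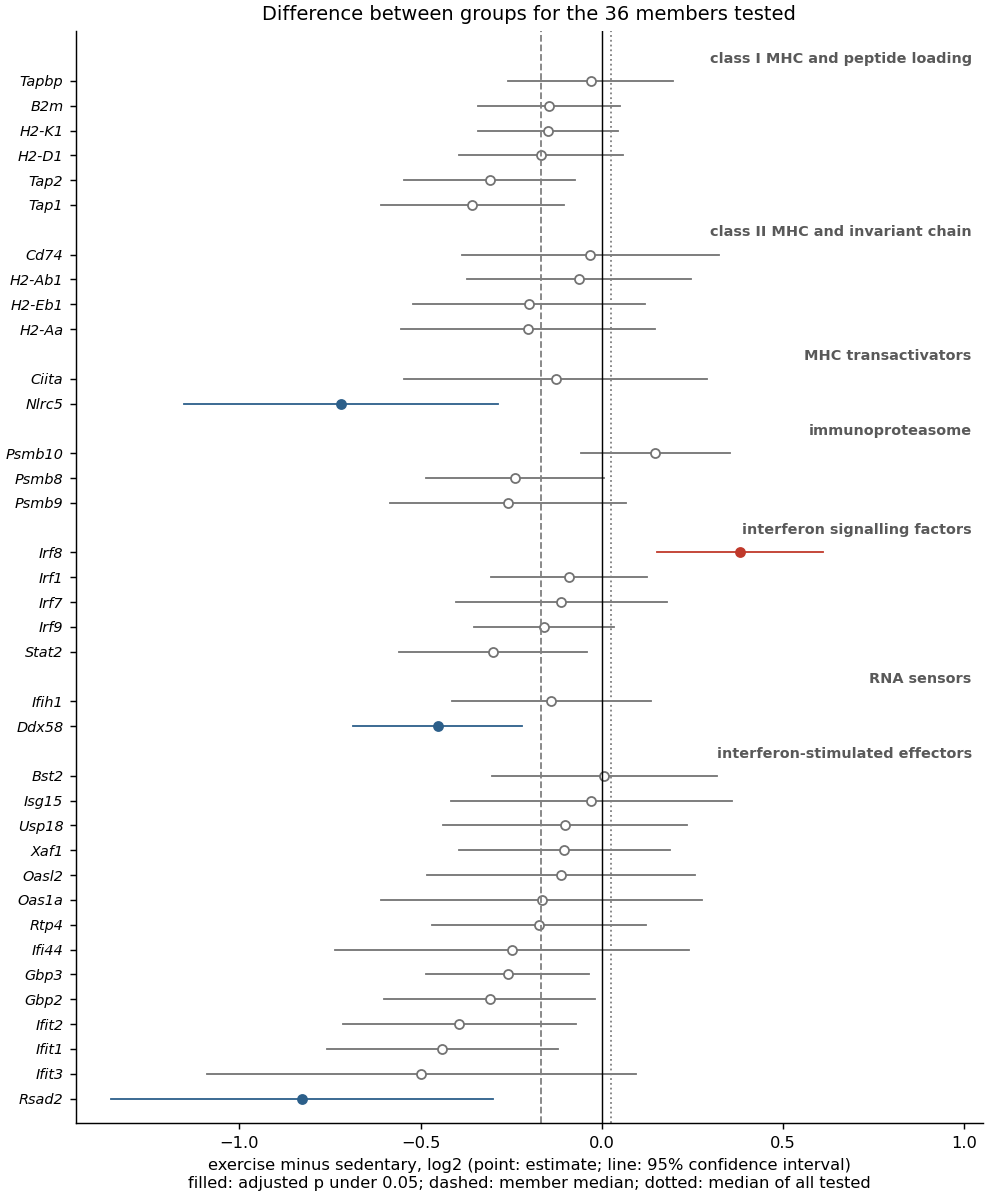
The exercise minus sedentary difference (x axis, log2) of each of the 36 members tested, grouped by role on the y axis, with its 95% confidence interval. Points lie left of 0 for 33 members, and the filled points are Nlrc5, Ddx58 and Rsad2, which fell, and Irf8, which rose.

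All 6 genes of the class I and peptide-loading group were lower in the exercise group, and in 5 of them the groups did not overlap. Of everything tested, 47.1% was lower, and 18.2% was lower without overlap. None of the 6 genes passed the adjusted test. B2m, the light chain shared by all class I molecules, was at 5.75, 5.86 and 5.73 on the exercise arrays and at 5.91, 5.95 and 5.91 on the sedentary arrays. Every exercise value was below every sedentary value, with a difference of -0.15 ± 0.08 (SE, n = 3 per group) and adjusted p = 0.241. The heavy chains H2-K1 and H2-D1 differed by -0.15 (adjusted p = 0.228) and -0.17 (adjusted p = 0.239). Class I heavy chain genes are near-identical in parts of their sequence, so a probe may also read a related gene. With quantile normalization, which forces the same distribution on every array, B2m (-0.38, adjusted p = 0.0395), H2-K1 (-0.40, adjusted p = 0.0344) and Tap2 (-0.42, adjusted p = 0.0491) passed the limma test. A second H2-K1 probe, designed on another transcript, gave -0.16.

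The peptide transporter showed the largest differences of this group. Tap1, the subunit that together with Tap2 forms the TAP channel, was at 0.11, 0.15 and -0.11 on the exercise arrays and at 0.38, 0.36 and 0.49 on the sedentary arrays. The groups were separated, with exercise mouse 3 the lowest, and the difference was -0.36 ± 0.10 (adjusted p = 0.0616). Tap2 differed by -0.31 ± 0.10 (adjusted p = 0.0737). Tapbp, or tapasin, which holds empty class I molecules at the transporter, was nearly level between the groups (-0.03, adjusted p = 0.836) and its values overlapped. Averaged over the 6 genes and set to the sedentary mean, the exercise arrays stood at -0.23, -0.11 and -0.23 and the sedentary arrays between -0.02 and 0.03. The median difference of this group was -0.16 with all arrays and -0.18 without exercise mouse 3.

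The class II genes and the invariant chain did not separate the groups. H2-Aa, the class II alpha chain and the largest difference of the group, was at 1.62, 1.96 and 1.46 on the exercise arrays and at 1.81, 1.99 and 1.85 on the sedentary arrays. Exercise mouse 2 lay among the sedentary mice, and the difference was -0.20 ± 0.14 (adjusted p = 0.344). The beta chains H2-Eb1 (-0.20) and H2-Ab1 (-0.06) and the invariant chain Cd74 (-0.03), which guides class II molecules through the cell, also overlapped. All 4 were lowest in exercise mouse 3, and without that array only 2 of the 4 remained lower, with a median of -0.04.

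The class I and class II genes each have a dedicated transactivator of the NLR family. Nlrc5, the transactivator of MHC class I genes, was at -1.02, -1.66 and -1.21 on the exercise arrays and at -0.63, -0.67 and -0.43 on the sedentary arrays. The groups did not overlap, and Nlrc5 fell by 0.72 ± 0.18 on the log2 scale, or 39.3% (adjusted p = 0.0426). A second, dimmer Nlrc5 probe did not clear the background in either group. Ciita, which drives class II genes, overlapped between the groups and differed by -0.13 ± 0.17 (adjusted p = 0.623). Whether the difference of Nlrc5 departs from that of Ciita was not tested. Among 14 other antigen presentation genes tested, none fell and 2 rose, while 6.12% of everything tested fell and 11.5% rose. The 2 were Rfxank (+0.37, adjusted p = 0.0459) and Rfxap (+0.35, adjusted p = 0.0469), subunits of the RFX complex that binds class I and class II promoters. Neither passed limma with quantile normalization (adjusted p = 0.0618 and 0.0633), and both were lower without scaling between arrays (-0.10 and -0.13). Rfx5, another subunit of the complex, was lower without passing (-0.19, adjusted p = 0.320 by limma). The 12 that did not pass had differences of both signs.

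**Figure D2:**
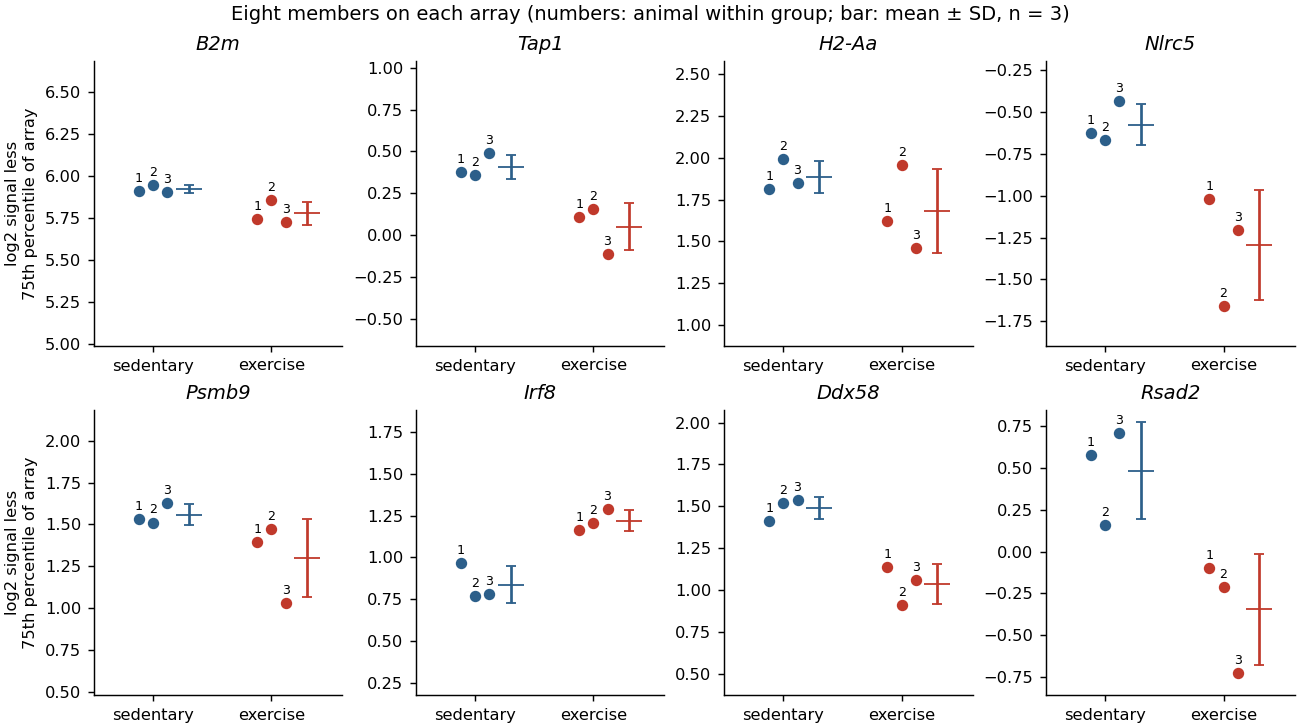
The log2 signal relative to the 75th percentile of the array (y axis, 1.7 log2 units in every panel) of B2m and of the members with the largest difference in each role, by animal, with mean and SD (n = 3). The groups are separated in every panel except that of H2-Aa.

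The immunoproteasome replaces the catalytic subunits of the ordinary proteasome when interferon is present, Psmb9 taking the place of Psmb6, Psmb10 that of Psmb7 and Psmb8 that of Psmb5. The replacement subunits had differences of both signs and none passed the test. Psmb9 was at 1.39, 1.47 and 1.03 on the exercise arrays and at 1.54, 1.51 and 1.63 on the sedentary arrays. All exercise values were lower, by a margin set largely by exercise mouse 3, with a difference of -0.26 ± 0.13 (adjusted p = 0.214). Psmb8 differed by -0.24 (adjusted p = 0.144), again without overlap. Psmb10 stood the other way, above all sedentary arrays, with a difference of +0.15 (adjusted p = 0.255), although it turned with quantile normalization (-0.05) and without scaling (-0.33).

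Relative to the 75th percentile, the constitutive subunits were higher on every exercise array, whereas without scaling they stood at -0.10 for Psmb6, -0.09 for Psmb7 and -0.20 for Psmb5, and with quantile normalization Psmb5 and Psmb6 were each at +0.03. Psmb6 rose by 0.38 ± 0.08 (adjusted p = 0.0280) and Psmb7 by 0.38 ± 0.10 (adjusted p = 0.0497), and Psmb5 was higher by 0.27 (adjusted p = 0.0714). The log2 ratio of each replacement subunit to its counterpart on the same array is free of any factor applied to the whole array. It is not free of array differences that vary with signal level. Psmb6 and Psmb5 (sedentary means 6.94 and 5.15) were much brighter than Psmb9 and Psmb8 (1.56 and 1.67). The ratios were not taken after quantile normalization. Set to the sedentary mean and averaged over the 3 pairs, it was -0.50, -0.33 and -0.55 on the exercise arrays and 0.01, -0.01 and 0.00 on the sedentary arrays. The ratio was lower on every exercise array for each pair, with a mean difference of -0.64 for Psmb9 to Psmb6, -0.51 for Psmb8 to Psmb5 and -0.24 for Psmb10 to Psmb7. These ratios were chosen after the values were seen and are given without a test.

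**Figure D3:**
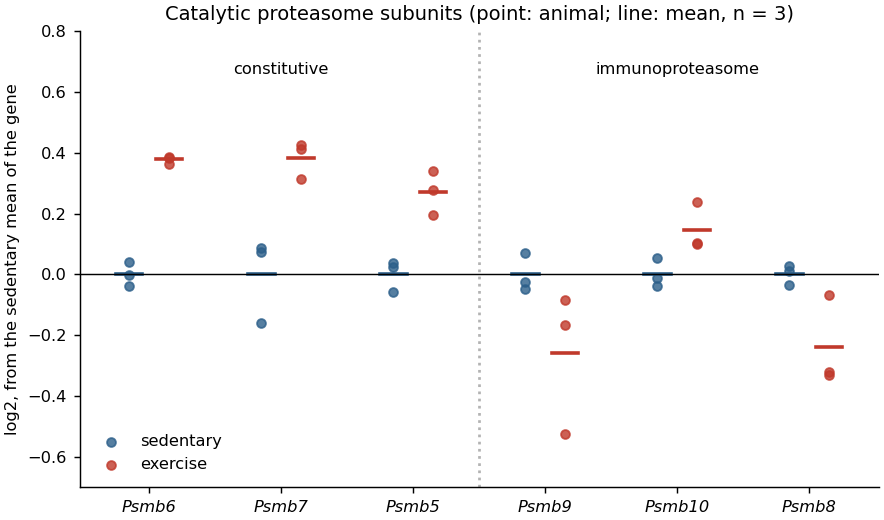
Signal of the catalytic proteasome subunits (y axis, log2, relative to the sedentary mean of each gene) by animal, with the constitutive subunits on the left and the replacement subunits of the immunoproteasome on the right. In these scaled values the exercise points lie above the sedentary points for Psmb5, Psmb6, Psmb7 and Psmb10 and below them for Psmb8 and Psmb9.

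Among the interferon signalling factors the one member that rose stood apart from the rest. Irf8, a transcription factor of the myeloid lineage, was at 1.17, 1.20 and 1.29 on the exercise arrays and at 0.97, 0.77 and 0.78 on the sedentary arrays. The groups did not overlap, and sedentary mouse 1 lay nearest to the exercise group. Irf8 rose by 0.38 ± 0.09 on the log2 scale, or 30.2% (adjusted p = 0.0422). Without scaling between arrays the difference was -0.09, so its direction holds only relative to the other probes of the array.

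Stat2 and Irf9 are subunits of the ISGF3 complex through which type I interferon switches on its target genes. Both were below all sedentary arrays in every exercise mouse, with differences of -0.30 for Stat2 (adjusted p = 0.0971) and -0.16 for Irf9 (adjusted p = 0.201), and neither passed the test. A dimmer second probe of Stat2 gave +0.22. Irf1 (-0.09) and Irf7 (-0.11), which are themselves induced by interferon, overlapped between the groups, and dimmer second probes of the same genes gave +0.06 and +0.01.

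Receptors and other pathway genes were taken from lists outside the members. Probes for the interferons themselves were dim: those of Ifnb1 and Ifng did not clear the background on any of the 6 arrays, and that of Ifna4 did on 1. Of the 4 interferon receptor genes tested, 1 rose, Ifngr2 (+0.80 ± 0.17, adjusted p = 0.0308), the signalling chain of the interferon gamma receptor. Over everything tested, 11.5% rose and 6.12% fell. Among other pathway genes, Socs3, a feedback inhibitor of JAK and STAT signalling induced by several cytokines, rose by 1.31 ± 0.31 (adjusted p = 0.0384). Tlr3, the endosomal sensor of double-stranded RNA, fell by 0.51 ± 0.09 (adjusted p = 0.0249), though its difference was +0.02 after normexp background correction.

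The cytoplasmic RNA sensors were both lower in the exercise group. Ddx58, which encodes RIG-I, was at 1.14, 0.91 and 1.06 on the exercise arrays and at 1.41, 1.52 and 1.54 on the sedentary arrays. The groups were well apart, and Ddx58 fell by 0.45 ± 0.10 on the log2 scale, or 27.0%, with the lowest adjusted p of any member (0.0314). Other Ddx58 probes that were kept gave -0.21 and -0.44. A further, dimmer probe was well above background on only 1 array, gave +0.25 and was not kept. Ifih1, which encodes MDA5, differed by -0.14 (adjusted p = 0.406), with exercise mice 1 and 2 among the sedentary values.

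Of the 14 interferon-stimulated effectors tested, 13 were lower in the exercise group, 1 of them past the adjusted test. Over everything tested, 47.1% was lower and 6.12% fell past the test. Rsad2, which encodes the antiviral enzyme viperin, was at -0.10, -0.21 and -0.72 on the exercise arrays and at 0.58, 0.16 and 0.71 on the sedentary arrays. Exercise mouse 3 was lowest, and sedentary mouse 2 lay closest to the exercise group. Rsad2 fell by 0.83 ± 0.22, or 43.6% (adjusted p = 0.0483), and a second probe gave -0.95.

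The IFIT genes, which encode proteins that bind viral RNA, and the guanylate-binding proteins Gbp2 and Gbp3 were lower in all exercise mice without passing the test. Ifit1 differed by -0.44 (adjusted p = 0.0656), Ifit2 by -0.39 (adjusted p = 0.0864) and Ifit3 by -0.50 (adjusted p = 0.192). The Ifit3 value of exercise mouse 3 was 0.98, against 1.75 and 1.89 in the other exercise mice, and without that mouse the Ifit3 difference was -0.22. Gbp2 and Gbp3 differed by -0.31 and -0.26 (adjusted p = 0.117 and 0.0979). The remaining 8 effectors overlapped between the groups. Isg15, the ubiquitin-like modifier often read as a marker of the interferon response, differed by -0.03 ± 0.16, and Bst2, or tetherin, by +0.01 ± 0.13. Usp18, Xaf1, Oasl2, Oas1a, Rtp4 and Ifi44 lay between -0.25 and -0.10, and a dimmer second Xaf1 probe gave +0.14. Over the 14 effectors the array means were -0.08, -0.22 and -0.48 in the exercise group and 0.03, -0.10 and 0.07 in the sedentary group. Exercise mouse 1 was above sedentary mouse 2, and without exercise mouse 3 the median fell in size from -0.21 to -0.11, with 10 of the 14 lower. A list of 34 further interferon-stimulated genes outside the members had 30 lower and 4 higher, with a median of -0.20, and none passed the adjusted test (limma, with 6 lower and none higher at an unadjusted p under 0.05). At that unadjusted p, 3851 of all 25005 were lower and 5398 higher.

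**Figure D4:**
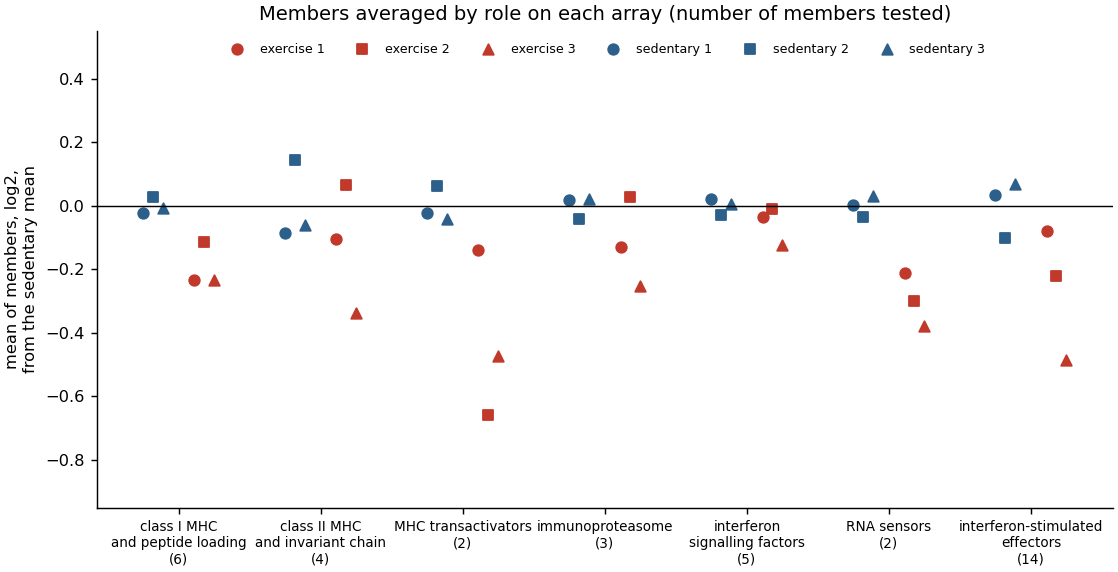
Mean over the members of each role on each array (y axis, log2, relative to the sedentary mean of each gene), with 1 symbol per animal and the number of members in parentheses. Exercise mouse 3 (red triangles) is lowest among the class II genes, the immunoproteasome, the signalling factors, the RNA sensors and the effectors.

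Many interferon-induced genes carry an interferon-stimulated response element (ISRE) near their start, to which ISGF3 and IRF factors bind. RefSeq promoter windows (GRCm38.p6), from 250 bases before to 50 after the gene start, were used for 29 of the 38 members, and none for Cd74, Rtp4, Ciita, Nlrc5, Usp18, H2-Ab1, Tap2, Mx1 and Mx2. The letters GAAANNGAAA, searched on both strands with overlapping matches allowed, were in at least 1 window of 12 members (41.4%) and of 3.99% of all 27025 genes with windows. The gamma-activated site, searched as TTCNNNGAA, was in 6 members (20.7%) and in 9.55% of all genes. Windows of 5 members are printed 5′ to 3′ on the strand of the gene, with ISRE letters in capitals: Rsad2 and Ddx58, which fell, Ifit1 and B2m, which were lower without passing the test, and Isg15, which was nearly level. They lie at chr12:26456403-26456702, minus strand, for Rsad2, chr4:40239776-40240075, minus strand, for Ddx58, chr19:34640639-34640938, plus strand, for Ifit1, chr2:122147437-122147736, plus strand, for B2m, and chr4:156200769-156201068, minus strand, for Isg15.
Rsad2: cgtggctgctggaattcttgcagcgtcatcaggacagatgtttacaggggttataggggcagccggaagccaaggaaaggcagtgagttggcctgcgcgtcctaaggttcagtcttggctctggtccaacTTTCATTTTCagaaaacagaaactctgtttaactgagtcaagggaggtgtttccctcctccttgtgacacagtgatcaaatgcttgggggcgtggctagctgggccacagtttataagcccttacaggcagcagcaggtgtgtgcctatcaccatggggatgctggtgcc
Ddx58: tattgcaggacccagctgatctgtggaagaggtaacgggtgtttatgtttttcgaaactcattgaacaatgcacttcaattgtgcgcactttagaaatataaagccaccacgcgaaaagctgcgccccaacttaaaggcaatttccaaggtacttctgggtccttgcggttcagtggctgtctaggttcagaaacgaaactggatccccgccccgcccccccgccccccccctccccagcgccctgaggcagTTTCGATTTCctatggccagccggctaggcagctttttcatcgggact
Ifit1: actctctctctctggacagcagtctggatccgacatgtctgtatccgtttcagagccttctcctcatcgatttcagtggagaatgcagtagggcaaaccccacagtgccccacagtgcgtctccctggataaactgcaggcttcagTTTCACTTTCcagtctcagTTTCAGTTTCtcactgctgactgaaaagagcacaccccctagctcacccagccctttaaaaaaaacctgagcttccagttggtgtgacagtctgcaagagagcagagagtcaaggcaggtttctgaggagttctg
B2m: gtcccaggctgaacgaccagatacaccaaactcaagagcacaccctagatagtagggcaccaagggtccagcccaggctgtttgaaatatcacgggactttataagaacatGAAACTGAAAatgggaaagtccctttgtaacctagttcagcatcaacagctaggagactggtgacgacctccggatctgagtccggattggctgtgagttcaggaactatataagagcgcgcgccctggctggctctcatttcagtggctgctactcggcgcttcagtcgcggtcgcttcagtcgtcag
Isg15: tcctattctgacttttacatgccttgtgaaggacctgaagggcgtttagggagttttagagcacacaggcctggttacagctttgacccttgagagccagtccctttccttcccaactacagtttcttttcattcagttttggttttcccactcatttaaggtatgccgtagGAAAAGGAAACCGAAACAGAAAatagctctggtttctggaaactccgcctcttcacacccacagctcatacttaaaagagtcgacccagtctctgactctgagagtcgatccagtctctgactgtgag

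The match begins 120 bases before the gene start in Rsad2 and 139 bases before it in B2m, whereas that of Ddx58 lies just past the start. Isg15 has 3 overlapping matches, the most of any member, and Ifit1 has 2. Both windows of Irf8 hold none. The 12 members with an ISRE had a median difference of -0.28 and 11 of them were lower, and the 17 without one had a median of -0.16 and 15 were lower. Among other named genes tested, the median was -0.02 for the 449 with an ISRE and 0.03 for the 11955 without one. This split by ISRE was chosen after the members' windows were seen and is given without a test. A match is a description of the letters and not a measured binding site.

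Cells that carry much class II and interferon-stimulated RNA were followed through fixed marker lists. None of 11 macrophage and monocyte markers passed the test, 5 were higher and 6 lower, and all overlapped between the groups. Their summed signal ran from 85.6 to 98.9 times the 75th percentile on the exercise arrays and from 82.6 to 96.3 on the sedentary arrays. Adgre1, which encodes F4/80, differed by -0.26 ± 0.32, with its highest value (2.78) in sedentary mouse 1. Of 5 dendritic cell markers tested, Itgax fell (-0.67 ± 0.16, adjusted p = 0.0424), and the summed signal overlapped, at 0.93 to 1.26 on the exercise arrays and 1.03 to 1.23 on the sedentary arrays. The dim Itgax probe did not pass limma with quantile normalization (-0.59, adjusted p = 0.0691) or normexp background correction (-0.21, adjusted p = 0.144). Without scaling it passed (-1.14, adjusted p = 0.0114). None of the 3 leukocyte markers passed. Ptprc, which encodes the pan-leukocyte antigen CD45, was below all sedentary arrays in the exercise mice (-0.36 ± 0.15, adjusted p = 0.135), and the summed leukocyte signal was 3.99 to 5.45 against 4.39 to 6.92. None of the 3 T and NK cell markers tested passed. Their summed signal was 3.47 to 3.96 in the exercise group and 2.68 to 3.47 in the sedentary group. Probes of Cd79a and Cd8a did not clear the background anywhere. Cd3e (+0.15 ± 0.17), Cd4 (+0.27) and Cd3d (-0.40) each overlapped. None of 4 neutrophil markers passed, but all 4 were lower and their summed signal was 65.0 to 70.6 in the exercise group and 70.8 to 75.8 in the sedentary group. That sum is mostly Csf3r, by far the brightest of the 4, whose own values overlapped (-0.10, adjusted p = 0.434). Ly6g was nearly level (-0.01), and the dimmer S100a8 and S100a9 differed by -1.25 (adjusted p = 0.118) and -1.04 (adjusted p = 0.134). None of 5 endothelial and 2 red blood cell markers passed. The part of these cells, and of the higher fibre markers, in the members' differences was not tested.

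**Figure D5:**
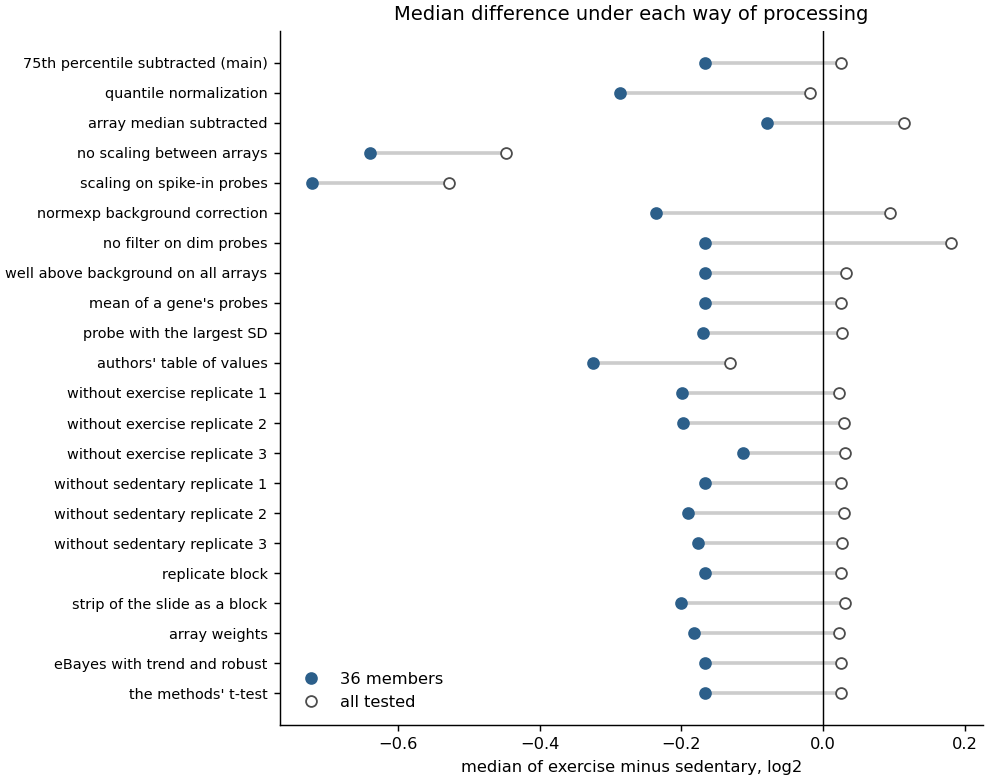
Median exercise minus sedentary difference (x axis, log2) of the 36 members and of everything tested under each way of processing (y axis). The member median lies left of the overall median in every row, with differences from -0.35 to -0.14, while both shift together with the scaling between arrays. Rows that differ only by a factor per array, or by the test of the same group means, cannot differ in this gap.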

How the data were processed

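Quadriceps RNA of 3 exercised and 3 sedentary male AR97Q mice was hybridized to 1 single-colour Agilent SurePrint G3 array per mouse. The authors deposited scanner files (Feature Extraction 12.1.0.3) whose processed signal is an intensity on a linear scale, background-subtracted and detrended. They also deposited a table of values, the same intensity multiplied by 1 factor per array. Here log2 of the processed signal minus the 75th percentile of the array was used, without control spots and outlier flags. Probes were kept if at least 3 arrays had them well above background (32726 of 56605), were named by unversioned RefSeq accession (GRCm38.p6), and a gene took its probe with the highest mean. The exercise and sedentary groups entered a limma fit (version 3.58.1, R 4.3.3) by lmFit and eBayes with no covariate, two-sided, and p-values were adjusted by Benjamini-Hochberg over 25005 genes and transcripts. Errors after ± are SE with 3 mice per group.

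Members and gene lists were chosen with earlier results of these data known. Values on every array are given for members past an adjusted p of 0.05, B2m, and the largest difference of each role, and wider lists are represented by at most 3 passing genes and defining markers. Some genes of these lists are not reported here. The fit was tested on simulated data. The p-values set the difference of group means against the spread between 3 mice per group, moderated by eBayes over everything tested. The number of arrays limits their precision. Most sedentary arrays lay in another strip of the slide, so group and strip are not fully separated. Other normalizations, filters, probe choices, arrays left out, blocks and tests were tried as alternatives.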

Additional observations from a re-analysis of the deposited data

How the results depend on the processing

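Of the 36 members, 24 kept their direction under all 21 alternatives. The members' median stayed below that of everything tested in each, from -0.35 (no filter on dim probes) to -0.14 (without exercise mouse 3). A factor per array, or another test of the same group means, cannot change this gap, which was -0.19 in those fits. Without the filter the members' median stayed at -0.17, and only that of everything tested moved, to 0.18. Which members passed depended on the processing. The members that fell and rose numbered 4 and 0 with quantile normalization, 1 and 0 with the array median subtracted, 32 and 0 without scaling (median -0.64), 33 and 0 with scaling on spike-in probes (median -0.72), and 12 and 0 in the authors' table of values (median -0.33). Of everything tested, 5.45% fell and 7.46% rose with quantile normalization, and 3.50% and 10.7% with the array median subtracted. These shares were 45.1% and 2.47% without scaling, 46.6% and 1.41% on spike-in probes, and 12.8% and 4.69% in the authors' table. They were 11 and 1 with normexp background correction, 5 and 1 with probes well above background on all arrays, 5 and 1 with array weights, 6 and 1 with trend and robust eBayes, and 2 and 0 with the probe of largest SD. Leaving out 1 array left 0 or 1 fallen and 0 or 1 risen, with medians from -0.20 to -0.11. Only leaving out sedentary mouse 1 left any call (Ddx58 and Irf8), and leaving out any other array left at most 0.004% of everything tested called in either direction. With the slide's strip as a block both counts were 0 (0.0120% of everything tested fell and 0% rose). With the methods' t-test after adjustment both counts were 0 (0.816% and 1.75% of everything tested). With the replicate number as a block both were also 0, and since same-numbered mice deviated together with correlations of only 0.02, 0.08 and 0.04, the numbers were not taken as pairs. With the fold change minimum both were 0, against 264 fallen and 430 risen of everything tested. Nlrc5 passed in 11 of the 21 alternatives, Ddx58 in 10, Rsad2 in 8 and Irf8 in 7, with adjusted p up to 0.269, 0.243, 0.233 and 0.489.

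These members changed sign. With quantile normalization Psmb10 was at -0.047 and Bst2 at -0.12. With the array median subtracted Tapbp was at 0.057, H2-Ab1 at 0.025, Cd74 at 0.056 and Isg15 at 0.059. Without scaling Psmb10 was at -0.33, Irf8 at -0.092 and Bst2 at -0.47, and on spike-in probes they were at -0.41, -0.17 and -0.55. Bst2 was at -0.077 with normexp, and in the authors' table Psmb10 was at -0.010 and Bst2 at -0.15. Xaf1 was at 0.020 as the mean of its probes and at 0.14 with the probe of largest SD, where Stat2 was at 0.22 and Irf1 at 0.055. With the strip as a block H2-Ab1 was at 0.021, Cd74 at 0.014, Isg15 at 0.015 and Bst2 at -0.21. With array weights Isg15 was at 0.094 and Oasl2 at 0.030. With 1 array left out, Bst2 ran from -0.077 to 0.12, Isg15 from -0.17 to 0.072, Tapbp from -0.099 to 0.018, H2-Ab1 from -0.14 to 0.028, Cd74 from -0.14 to 0.11, Oasl2 from -0.22 to 0.010 and Usp18 from -0.20 to 0.017. The cause of these changes was not tested. Scaling by 1 factor per array shifts every probe of an array together, and quantile normalization does not. The probe used was well above background on all 6 arrays for each of the 36 members.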
